A study of Homo sapiens with 3 samples.

Results

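The regions described here are peaks that control immunoglobulin (IgG) gave in chromatin of HuCCT1 cells, outside the stretches of the genome where such peaks were dense. HuCCT1 is an established human cell line from cancer of the bile ducts (cholangiocarcinoma, CCA). The study sequenced DNA recovered by chromatin immunoprecipitation (ChIP-seq) from these cells, using IgG and antibodies to the proteins SBNO1 (Strawberry Notch 1) and TAF4 (a TATA-box binding protein associated factor). The data comprised 1 peak list for each of the 3 libraries, and the labels name no treatment or genetic change, so as labeled the libraries differ by antibody alone. For each antibody, material from several biological replicates went into a single pooled library, as the study's methods state. There is therefore no replicate spread to set a difference against and no test was made. Beside a share stands its 95% interval (exact, Clopper-Pearson), which covers counting error only. Neighboring peaks are not independent replicates of one another, and the read depth behind the lists is unknown.

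An IgG peak was called scattered when its center fell in a 1 Mb bin that held fewer than 10 IgG peak centers. Of 1598 IgG peaks, 922 met this rule and 676 lay in denser bins. The scattered peaks occupied 493 bins, the remainder only 27, and 303 scattered peaks were alone in their bin. These peaks were chosen by the positions of the IgG peaks themselves, so their number and spacing are a description. The SBNO1 and TAF4 positions and the DNA sequence had no part in the choice. The 36 peaks in the 4 bins with 9 centers had a median width of 255.5 bp and a median of 14.02% of their 50-base windows occurring once in the genome. The 40 peaks in the 4 bins with 10 centers had a median width of 438 bp and a median of 96.3% such windows. These bins lay on chromosomes 1, 12, 21 and 22 just inside the limit and on chromosomes 12, 14, 20 and 22 just outside it.

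IgG without a specific target is added to chromatin to measure what the beads and the sequencing recover without an antibody of interest. Reads from such a control are commonly high over open chromatin, at highly transcribed genes and in repeats that the genome assembly holds in too few copies. TAF4 is a subunit of TFIID, the general transcription factor that is loaded at the start sites of genes transcribed by RNA polymerase II. SBNO1 is a nuclear protein related to the Strawberry notch protein of the fly, which acts with Notch signaling. NF-Y is a transcription factor complex that binds the CCAAT box, a short element found ahead of many start sites. AP-1, a dimer of FOS and JUN family proteins, binds enhancers and is induced by growth signals and stress.

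The sequences below are examples of DNA on which scattered IgG peaks lay. They were read from GRCh38 on the plus strand at the peak center, cut to leave out annotated exons. The first set comes from the highest-ranked promoter peaks with unique sequence and at least 60 bases outside exons, with CCAAT in either orientation in capitals (CCAAT, or ATTGG for the other strand).

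SP1 (chr12:53379702-53379901, + strand): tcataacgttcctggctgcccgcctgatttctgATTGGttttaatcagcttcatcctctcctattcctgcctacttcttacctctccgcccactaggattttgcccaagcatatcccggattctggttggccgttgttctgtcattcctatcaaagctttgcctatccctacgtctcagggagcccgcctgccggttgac

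SP2 (chr17:47895930-47896129, + strand): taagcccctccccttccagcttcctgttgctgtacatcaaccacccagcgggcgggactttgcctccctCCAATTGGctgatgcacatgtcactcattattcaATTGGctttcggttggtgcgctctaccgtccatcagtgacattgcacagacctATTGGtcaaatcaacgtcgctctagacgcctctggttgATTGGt

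RAB5B (chr12:55973818-55973912, + strand): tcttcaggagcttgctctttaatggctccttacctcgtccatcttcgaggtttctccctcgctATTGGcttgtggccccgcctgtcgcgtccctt

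FLAD1 (chr1:154983131-154983330, + strand): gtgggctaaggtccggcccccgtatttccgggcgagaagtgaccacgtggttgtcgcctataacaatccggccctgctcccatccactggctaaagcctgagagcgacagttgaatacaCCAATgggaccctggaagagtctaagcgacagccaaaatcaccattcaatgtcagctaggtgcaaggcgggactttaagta

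SP2 held 5 such matches in 200 bp, of which 1 pair overlapped, while SP1, RAB5B and FLAD1 each held 1. The next promoter sequences also held 5 and, beside SP2, had the most among promoter peaks with unique sequence. They were chosen after the counts were seen.

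OSBP (chr11:59615944-59616143, + strand): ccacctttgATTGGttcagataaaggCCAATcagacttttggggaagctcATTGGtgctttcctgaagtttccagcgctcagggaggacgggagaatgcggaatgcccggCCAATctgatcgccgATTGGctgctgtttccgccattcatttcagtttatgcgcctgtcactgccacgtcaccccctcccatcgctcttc

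DNM2 (chr19:10717675-10717874, + strand): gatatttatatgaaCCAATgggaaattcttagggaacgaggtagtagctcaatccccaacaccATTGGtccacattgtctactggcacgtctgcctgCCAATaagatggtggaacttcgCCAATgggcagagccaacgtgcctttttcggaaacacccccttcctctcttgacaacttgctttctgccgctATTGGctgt

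NDUFAF8 (chr17:81239107-81239304, + strand): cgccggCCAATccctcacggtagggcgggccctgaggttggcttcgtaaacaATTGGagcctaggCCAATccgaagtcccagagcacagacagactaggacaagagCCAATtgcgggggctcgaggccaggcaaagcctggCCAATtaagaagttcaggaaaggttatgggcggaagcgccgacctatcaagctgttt

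OSBP encodes an oxysterol-binding lipid transfer protein, DNM2 a dynamin that cuts vesicles from membranes, and NDUFAF8 an assembly factor of respiratory complex I. The next 3 windows are examples from scattered peaks of high rank with unique sequence away from promoters. Some peaks of similar rank are not shown. Among these, a peak in an intron of STEAP1B ranked above the PARP11 peak and held an AP-1 match. The names below are those of the protein-coding gene with the nearest start site, which need not be the gene that holds the window. The SLCO1B1 window lay in an intron of SLCO1B3-SLCO1B7, 56912 bp from the SLCO1B1 start site. CCAAT and the AP-1 consensus (TGACTCA or TGAGTCA) would be in capitals where present.

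SLCO1B1 (chr12:21073880-21074079, + strand): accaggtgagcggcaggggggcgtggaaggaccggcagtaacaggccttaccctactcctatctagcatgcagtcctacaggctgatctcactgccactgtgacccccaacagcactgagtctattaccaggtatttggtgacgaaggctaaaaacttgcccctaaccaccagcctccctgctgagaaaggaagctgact

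PROS1 (chr3:93470478-93470677, + strand): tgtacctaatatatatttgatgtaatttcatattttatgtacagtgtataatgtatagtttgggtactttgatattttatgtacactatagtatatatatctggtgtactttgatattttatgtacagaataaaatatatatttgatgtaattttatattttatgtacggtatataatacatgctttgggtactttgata

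PARP11 (chr12:4011655-4011854, + strand): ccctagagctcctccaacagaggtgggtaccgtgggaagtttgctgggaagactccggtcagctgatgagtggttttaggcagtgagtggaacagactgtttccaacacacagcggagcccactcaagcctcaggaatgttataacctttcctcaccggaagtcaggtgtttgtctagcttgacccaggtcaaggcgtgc

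None of these 3 windows held a CCAAT or AP-1 match, but they do not stand for the group. Of all distal scattered peaks with unique sequence, 37.5% held AP-1. The window assigned to PROS1 was AT-rich and repetitive. Other distal peaks with unique sequence carried AP-1, shown here in capitals for the 4 that ranked highest among those with a match in the central 100 bp and were chosen after the matches were counted.

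F2RL1 (chr5:76806101-76806200, + strand): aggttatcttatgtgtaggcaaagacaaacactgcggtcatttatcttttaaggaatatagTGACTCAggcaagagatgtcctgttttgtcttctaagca

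AMN1 (chr12:31749367-31749466, + strand): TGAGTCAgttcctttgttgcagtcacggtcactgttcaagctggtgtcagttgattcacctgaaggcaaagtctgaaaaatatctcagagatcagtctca

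ITGA2 (chr5:52922469-52922568, + strand): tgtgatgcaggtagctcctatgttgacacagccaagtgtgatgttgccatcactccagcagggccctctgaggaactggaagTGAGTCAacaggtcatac

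WSB1 (chr17:27241766-27241865, + strand): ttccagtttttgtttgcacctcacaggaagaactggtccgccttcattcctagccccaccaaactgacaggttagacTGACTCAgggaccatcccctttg

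F2RL1 encodes a protease-activated receptor and ITGA2 an integrin subunit that binds collagen. The window named ITGA2 lay in an intron of ITGA1, and the nearest ITGA2 start site was 66697 bp away. The last sequences are the 80 bases just before the start of U1 small nuclear RNA genes, on the strand of the gene, and are shown because scattered peaks lay on several copies of them.

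RNU1-1 (chr1:16514286-16514365, - strand): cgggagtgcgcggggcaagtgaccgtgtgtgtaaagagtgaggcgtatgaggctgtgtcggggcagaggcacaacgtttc

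RNU1-2 (chr1:16895900-16895979, + strand): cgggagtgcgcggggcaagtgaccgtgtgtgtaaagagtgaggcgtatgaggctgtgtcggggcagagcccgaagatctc

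The 80 bases before RNU1-3 and RNU1-4 were the same as those before RNU1-2, and RNU1-1 differed from them at 6 bases.

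Scattered IgG peaks were more often at promoters than the IgG peaks in dense bins. Of the 922 scattered peaks, 216 (23.4%, interval 20.7 to 26.3) lay within 1 kb of the transcription start site (TSS) of a protein-coding gene. A further 121 (13.1%) lay between 1 and 10 kb from a TSS, and 585 (63.4%, 60.2 to 66.6) were distal, more than 10 kb away. In dense bins, 15 of 676 peaks were at promoters (2.22%, 1.25 to 3.63) and 643 were distal. The promoter share was 29.7% of SBNO1 peaks and 47.3% of TAF4 peaks. By the center of the peak, 584 scattered peaks were intergenic, 266 intronic, 62 in untranslated exons and 10 in coding exons of protein-coding genes. Scattered peaks had a median width of 376 bp, from 65 to 7433 bp, and a median deposited score of 728, with 24.4% at the highest score of 1000.

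Most scattered peaks were also peaks of the other antibodies. An SBNO1 peak overlapped 816 of them (88.5%, 86.3 to 90.5) and a TAF4 peak 814 (88.3%, 86.0 to 90.3). Both overlapped 776 (84.2%), 40 had only SBNO1, 38 only TAF4, and 68 (7.38%, 5.77 to 9.26) neither. Seen from the other lists, 825 SBNO1 peaks (5.11%) and 814 TAF4 peaks (6.38%) lay on a scattered IgG peak. Of those SBNO1 peaks, 95.4% (93.7 to 96.7) also overlapped a TAF4 peak, while 56.3% (55.5 to 57.1) of the 14763 SBNO1 peaks without any IgG peak did so. The overlap depended on how strictly it was defined. With an overlap of at least 50% of each peak, SBNO1 peaks lay on 65.7% of scattered peaks and TAF4 peaks on 68.1%.

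The overlap differed by position and by sequence. A 50-base window, the read length of the study, was called unique when it occurred once in the genome, and a peak when at least 90% of its windows did. At promoters, 213 of 216 scattered peaks had an SBNO1 peak (98.6%, 96.0 to 99.7) and 214 a TAF4 peak (99.1%, 96.7 to 99.9). Among the 376 distal peaks with unique sequence, SBNO1 was found on 95.7% (93.2 to 97.5) and TAF4 on 89.9% (86.4 to 92.7). Of these, 24 had SBNO1 only and 2 TAF4 only. Among the 209 distal peaks without unique sequence, SBNO1 was found on 64.6% (57.7 to 71.1) and TAF4 on 74.6% (68.2 to 80.4), with 8 carrying SBNO1 only and 29 TAF4 only. SBNO1 was thus the more frequent of both on unique distal peaks and the less frequent on the others, and the intervals of the SBNO1 shares did not meet. Distal IgG peaks in dense bins had SBNO1 on 78.1% and TAF4 on 85.7%. Of the 121 peaks at 1 to 10 kb, 108 had SBNO1 and 106 TAF4.

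**Figure D1:**
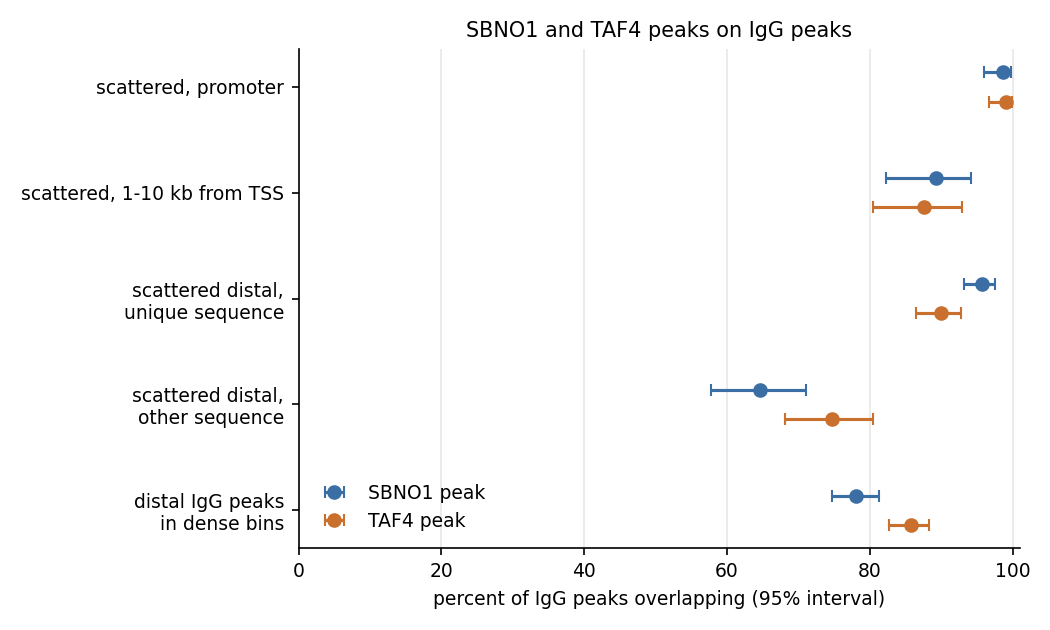
Share of IgG peaks (x axis, percent) that an SBNO1 or TAF4 peak overlapped by 1 bp or more, for scattered peaks by distance to the TSS and sequence and for distal IgG peaks in dense bins. Bars are 95% intervals for counting error only. Promoter peaks sit near the top of the scale for both antibodies, and distal peaks without unique sequence lie lowest, at 64.6% for SBNO1 and 74.6% for TAF4.

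The 15 highest-ranked promoter peaks all had the score of 1000 and all carried SBNO1 and TAF4 peaks. The widest was at FLOT1, which encodes the membrane scaffold flotillin (chr6:30742128-30743024, 897 bp). An SBNO1 peak of 1245 bp and a TAF4 peak of 2981 bp covered all of it. SP1 (747 bp) and SP2 (494 bp) encode transcription factors that bind GC boxes. At SP1, 2 SBNO1 peaks lay on the IgG peak. The SBNO1 peak with the largest overlap was 346 bp wide and covered 43.8% of it. This was less than at any other of the 15 genes, but the second SBNO1 peak at SP1 was not counted. STIP1, a co-chaperone that joins HSP70 and HSP90, had an IgG peak of 566 bp under an SBNO1 peak of 686 bp and a TAF4 peak of 909 bp.

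Other genes of that group were RAB5B, a GTPase of early endosomes, SPATC1L, FLAD1, which makes the cofactor FAD, SLC12A7, a potassium and chloride cotransporter, CSTF3, a subunit of the factor that cleaves the ends of transcripts, UCKL1, EEF1A1, which brings aminoacyl-tRNA to the ribosome, LURAP1L and SCNM1. Their IgG peaks were 211 to 361 bp wide. At EEF1A1 the IgG peak was 230 bp wide, the SBNO1 peak 578 bp and the TAF4 peak 828 bp. The SLC12A7 peak lay 949 bp from the nearest TSS and held an AP-1 match, whereas the EEF1A1 peak lay 19 bp from a TSS and the FLOT1, STIP1, SP2 and RAB5B peaks covered one.

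Scattered promoter peaks belonged to 214 protein-coding genes, which is 1.09% of 19689. Of these genes, 200 (93.5%, 89.3 to 96.4) also had an SBNO1 promoter peak, against a background of 21.8% of all protein-coding genes. TAF4 promoter peaks were present at 202 (94.4%, 90.4 to 97.1; background 27.2%), and both were present at 194 (90.7%, 85.9 to 94.2; background 18.0%). For 14 promoter peaks the overlapping SBNO1 peak had been assigned to another gene or distance class, and for 12 the TAF4 peak. A start site of another gene on the opposite strand lay within 1 kb upstream (a divergent promoter) at 17.8% (12.9 to 23.5) of the 214 genes. That share was 16.8% at the 3331 genes with SBNO1 and TAF4 but no IgG promoter peak, so no difference was detectable.

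The promoter peaks lacking a partner were few. The peak at NAIF1, which encodes a nuclear protein, had neither SBNO1 nor TAF4 (chr9:128067269-128067572, 304 bp, score 863). It covered a TSS, consisted of unique sequence and held a CCAAT match. The peak at EVI5L (score 977) had TAF4 only. KLRC3, a receptor gene of natural killer cells, had SBNO1 only. EVI5L and KLRC3 were named after their values were seen.

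The gene lists had few genes with a scattered promoter peak, although most ribosomal protein genes had SBNO1 and TAF4 peaks. Among 88 cytosolic ribosomal protein genes, 3 had one, among them RPL27 and RPL37, while 70 had an SBNO1 and 74 a TAF4 promoter peak. The IgG peak at RPL37 was 242 bp wide with a score of 983, and both other peaks there were at the highest score. Mitochondrial ribosomal protein genes had 3 of 83 (MRPL11, MRPL24 and MRPL45), beside 48 with SBNO1 and 53 with TAF4. Clustered histone genes had 3 of 79 (H2BC21, H3C14 and H4C16). Reads of histone genes are hard to assign because the copies are alike. Splicing factors had 3 of 90 (HNRNPA2B1, HNRNPL and SF3B2), heat shock and chaperone genes 1 of 94 (STIP1), translation factors 1 of 72 (EEF1A1) and aminoacyl-tRNA synthetases 1 of 34 (LARS1). The intervals of each of these shares included 1.09%, the share of all protein-coding genes. When a peak was counted for every gene with a TSS within 1 kb, clustered histones had 4 of 79 (5.06%, 1.40 to 12.5) beside 1.32% of all genes, which lies just below that interval. A peak can then count for several neighboring genes, so the genes are not independent and the interval does not allow for this. The interval of every other list included 1.32%.

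ATF3, a stress-induced partner of JUN, was the 1 gene of 11 in the FOS and JUN family with a scattered promoter peak (9.09%, 0.230 to 41.3). The immediate early list (28 genes; 7.14%, 0.877 to 23.5) had ATF3 and DUSP1, a phosphatase that turns off MAP kinases. The IgG scores there were low, 408 at ATF3 and 392 at DUSP1, while the SBNO1 and TAF4 peaks scored 999 or 1000 and were 609 to 1243 bp wide. None of 62 replication and cell cycle genes had a scattered promoter peak, with an upper limit of 5.78%. Of 509 zinc finger genes 3 had one (0.589%, 0.122 to 1.71). For each of these lists the interval included 1.09%, the share of all protein-coding genes.

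SBNO1 and TAF4 peaks were wider on scattered IgG peaks than at sites without an IgG peak. At promoters, SBNO1 peaks on a scattered IgG peak had a median width of 633 bp (quartiles 501 and 821). Those without any IgG peak measured 412 bp (312 and 538.5), and those without IgG that overlapped TAF4 measured 424.5 bp. For TAF4 the medians were 656 bp on a scattered peak, 411 bp without IgG and 452 bp without IgG but with SBNO1. The share of SBNO1 promoter peaks at the highest score was 49.3% (42.6 to 56.1) on a scattered IgG peak and 33.2% (31.7 to 34.8) at shared promoters without IgG. For TAF4 these shares were 77.9% (71.8 to 83.2) and 55.7% (54.1 to 57.3). Wide peaks were not limited to scattered IgG peaks. On the 15 promoter IgG peaks in dense bins the median widths were 726 bp for SBNO1 and 834 bp for TAF4. The SBNO1 peak was wider than the IgG peak at 89.7% of promoter peaks and covered it whole at 66.2%. Distal SBNO1 peaks were 544 bp on a scattered peak and 381 bp without IgG, and distal TAF4 peaks 484 and 374 bp. Because long peaks overlap others more readily, width enters the overlap itself.

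**Figure D2:**
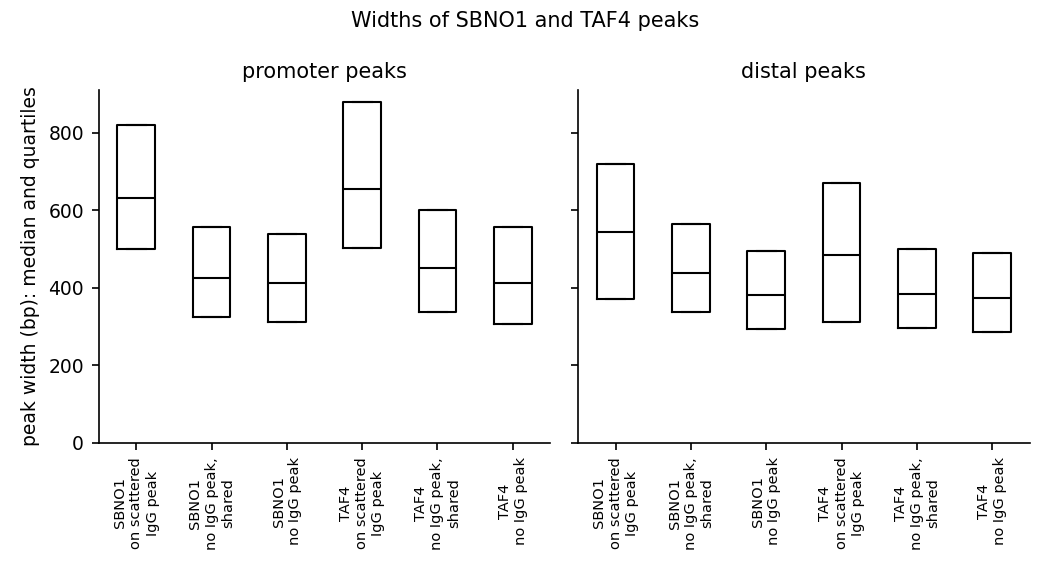
Width in bp (y axis) of SBNO1 and TAF4 peaks at promoters and at distal sites, for peaks on a scattered IgG peak, peaks with no IgG peak shared between SBNO1 and TAF4, and all peaks with no IgG peak. Boxes give the quartiles and lines the median. For each antibody the peaks on a scattered IgG peak have the largest median, with promoter medians of 633 bp for SBNO1 and 656 bp for TAF4.

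Wider IgG peaks also lay under wider SBNO1 and TAF4 peaks. Across peaks, Spearman's rho between IgG and SBNO1 width was 0.381 at promoters (n = 213) and 0.565 at distal sites (n = 495). For TAF4 it was 0.352 (n = 214) and 0.652 (n = 494). These are descriptions across peaks of 3 libraries that share the genome and the base composition of each site.

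The CCAAT box was frequent at the scattered promoter peaks. Of 216 windows of 200 bp at the peak center, 117 (54.2%, 47.3 to 60.9) held CCAAT on either strand, and 69 (31.9%, 25.8 to 38.6) held at least 2. Among SBNO1 promoter peaks without an IgG peak the shares were 31.9% (30.5 to 33.3) and 11.04% (503 of 4555). For TAF4 promoter peaks without IgG they were 34.8% (33.6 to 36.1) and 12.7% (11.9 to 13.6). Of windows set 140 bp upstream of protein-coding TSS (n = 78449), 27.1% held CCAAT and 7.55% at least 2. At 1 kb to either side of the scattered promoter peaks, 20.6% of windows held it. Windows centered on the SBNO1 peak in place of the IgG peak gave 48.9% (42.1 to 55.7) on scattered peaks.

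The scattered promoter peaks lay further upstream than other promoter peaks. The median position of their centers relative to the TSS was -136.5 bp, whereas SBNO1 and TAF4 promoter peaks without IgG were at -63 and -55 bp. Their CCAAT matches had a median position of -151 bp, and at SBNO1 and TAF4 shared promoters without IgG the median was -84 bp. Matches were sought only in the 200 bp at each peak center, so these positions depend on those of the centers and are no separate result. Where a window held at least 2 matches, the smallest spacing was 36 bp in the median and at most 50 bp in 50 of 69 windows. The spacing was 41 bp at the shared promoters without IgG, and at most 50 bp in 65.4% (60.9 to 69.8) of them, close to the 72.5% (60.4 to 82.5) at scattered peaks. Median GC content of the window was 58.5% at scattered promoter peaks, 62.5% at SBNO1 and 64.5% at TAF4 promoter peaks without IgG, and 60.5% in the windows ahead of all TSS. The part of base composition in the CCAAT shares was not tested.

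The other promoter motifs were no more frequent at scattered peaks than at the SBNO1 and TAF4 promoter peaks by more than counting error. The KLF/SP box (GGGCGG) was present in 51.4% (44.5 to 58.2) of scattered promoter peaks. It was present in 53.3% (51.8 to 54.8) of SBNO1 and 59.7% (58.5 to 61.0) of TAF4 promoter peaks without IgG. The KLF/SP interval of the scattered peaks lay below that of the TAF4 list. The ETS core (CCGGAA) was present in 22.2% (16.9 to 28.4), beside 25.3% and 24.8%. AP-1 was present in 4.17%, the cyclic AMP response element in 5.09% (2.57 to 8.93; 2.77% and 2.82% in the other lists) and the TATA box (TATAAA) in 2.78%. Windows ahead of all TSS held the KLF/SP box in 42.9% and the ETS core in 12.6%. All motifs were sought on both strands as exact words, and a match is a description of the letters only. The YY1 motif was found in none of the 216 windows (upper limit 1.69%), beside 1.84% of SBNO1 and 2.03% of TAF4 promoter peaks without IgG. The YY1 interval of the scattered peaks overlapped those of the SBNO1 (1.47 to 2.28) and TAF4 lists (1.68 to 2.43).

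**Figure D3:**
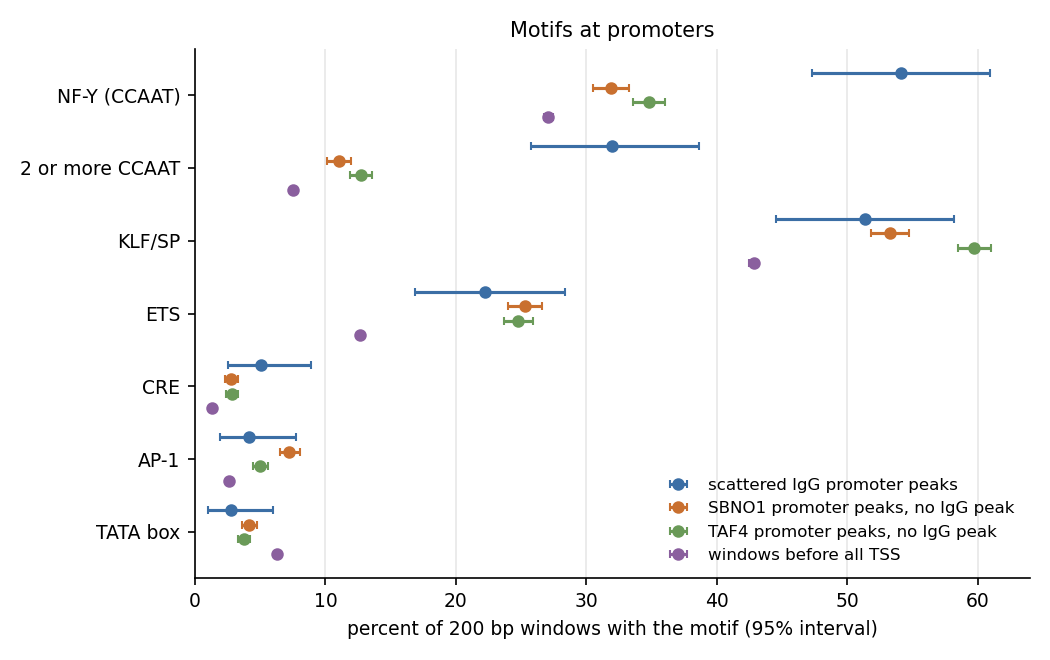
Share of 200 bp windows with each motif (x axis, percent) at scattered IgG promoter peaks, at SBNO1 and TAF4 promoter peaks without an IgG peak, and in windows 140 bp upstream of all protein-coding TSS. Bars are 95% intervals for counting error. CCAAT stands at 54.2% in scattered peaks against 31.9% and 34.8%. The ETS shares of the peak lists lie close together, while the KLF/SP share is lower in scattered peaks (51.4%) than in TAF4 peaks (59.7%).

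Nearly all promoter peaks carried SBNO1 and TAF4, whether or not they held CCAAT. SBNO1 peaks lay on 114 of 117 peaks with CCAAT and on 99 of 99 without it, and TAF4 peaks on 116 and 98. The SBNO1 peaks had median widths of 630 and 639 bp. The median IgG score was 729 with and 671 without CCAAT. Peaks with CCAAT were centered at -149 bp and those without at -90 bp. The scattered promoter peaks had a median GC content of 59.7% and a ratio of observed to expected CpG of 0.787 over the whole peak, and 93.5% of them were unique in sequence.

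AP-1 was frequent in distal scattered peaks with unique sequence. Of all 585 distal scattered peaks, 150 held the consensus (25.6%, 22.1 to 29.4). In the 376 with unique sequence, a split made after values were seen, it was present in 141 (37.5%, 32.6 to 42.6). In windows 1 kb to either side it was present in 38 of 752 (5.05%). Distal SBNO1 and TAF4 peaks without IgG held it in 39.8% (38.7 to 40.9) and 36.6% (35.2 to 38.1). Both shares lay above the interval of all distal scattered peaks and within that of the unique ones. Only 4.31% (1.99 to 8.02) of the 209 other distal scattered peaks held it, and 2.02% (1.08 to 3.43) of distal IgG peaks in dense bins. Scattered peaks at 1 to 10 kb held it in 28.9% (21.0 to 37.9).

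**Figure D4:**
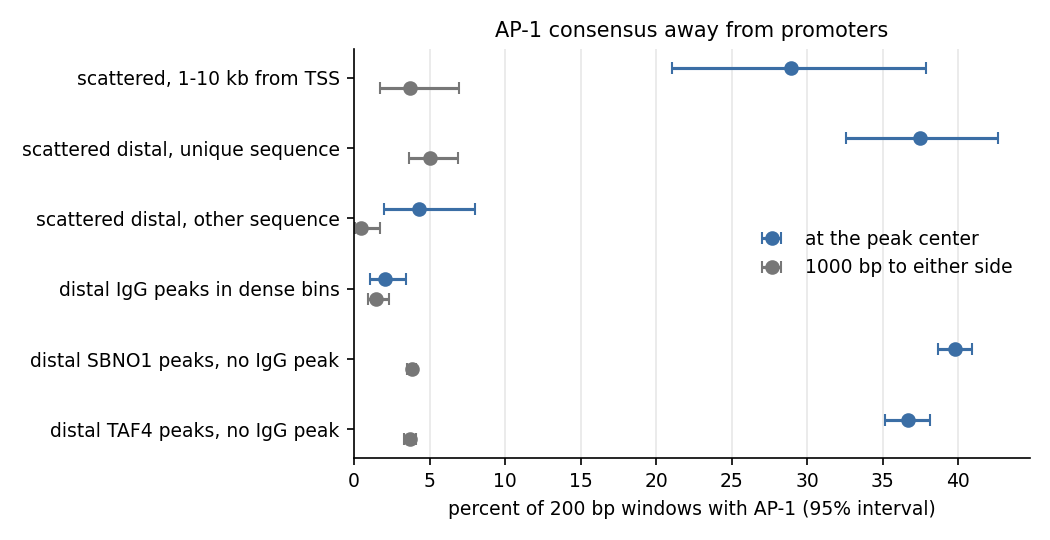
Share of 200 bp windows with the AP-1 consensus (x axis, percent) at the peak center and 1000 bp to either side, for scattered IgG peaks away from promoters, distal IgG peaks in dense bins, and distal SBNO1 and TAF4 peaks without IgG. Bars are 95% intervals for counting error. Unique distal scattered peaks (37.5%) lie with the SBNO1 and TAF4 peaks, and the other distal scattered peaks (4.31%) lie with those of dense bins.

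Of the 141 unique distal peaks with AP-1, 140 had an SBNO1 peak (99.3%, lower limit 96.1) and 128 a TAF4 peak (90.8%, lower limit 84.8). Of the 235 without AP-1, 220 (93.6%, 89.7 to 96.4) had SBNO1 and 210 (89.4%, 84.7 to 93.0) TAF4. The SBNO1 intervals of these groups overlapped narrowly and the TAF4 intervals broadly. The score of both groups was similar, with medians of 671 and 689, and none of the peaks with AP-1 had unknown bases within 100 kb. For unique distal peaks the median distance to the nearest TSS was 56664 bp, with 63.6% intergenic and 33.5% intronic.

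The distal peaks that ranked highest by score and width were mostly in sequence that occurs several times. The widest, of 7433 bp, lay near the centromere of chromosome 1 (chr1:125176806-125184238) and had 28.03% unique windows. It was part of a run of 9 scattered peaks within 10 kb of one another, the longest such run, and 3 of the 10 highest-ranked distal peaks belonged to it. A further 2 lay among DUX4-like repeats near the end of chromosome 10 (FRG2B had the nearest coding TSS) and had 6.48% and 2.54% unique windows. On chromosome 18, 2 lay near ROCK1P1, a ROCK1 pseudogene transcript, with 38.6% and 43.6%. The others lay on chromosome 2, in a stretch like mitochondrial DNA on chromosome 1, and on chromosome 21. For those on chromosomes 2 and 21 the nearest coding TSS was that of PSMD14 and TPTE, 27924 and 4151267 bp away. All 10 had SBNO1 and TAF4 peaks. Distal peaks without unique sequence scored 1000 in 60.3% (53.3 to 67.0) of cases and unique ones in 17.6% (13.8 to 21.8). Unknown bases lay within 100 kb of 54.5% (47.5 to 61.4) of the former and 5.05% (3.07 to 7.78) of the latter. In dense bins, 61.9% of distal IgG peaks were at the highest score and 76.8% had unknown bases nearby.

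A small group of scattered peaks, described after the matches were seen, matched the mitochondrial genome. There were 14, all at the highest score, with aligned lengths from 84 to 1225 bases and identities from 96.5% to 100%. On chromosome 1, 6 of them lay side by side at chr1:629092-634919. The largest was 1225 bp wide and 99.1% identical to the mitochondrial genome, and its SBNO1 and TAF4 peaks measured 1233 and 1871 bp. Others lay in an intron of PCBD2. For some distal ones the nearest coding TSS was that of RNF141, EPHA6, IRS2 or CNTNAP2, at 31172, 196597, 362244 and 118577 bp. TAF4 peaks lay on all 14 and SBNO1 peaks on 10. In all, 24 TAF4 peaks and 10 SBNO1 peaks matched the mitochondrial genome. Reads from mitochondria and from these nuclear copies can be told apart only where their bases differ.

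Small RNA genes, looked at after their overlap was seen, formed another group. Of 1901 annotated small nuclear RNA genes, 16 overlapped a scattered IgG peak, 54 an SBNO1 peak and 47 a TAF4 peak. Of 143 genes named as U1 or variant U1, pseudogenes included, 13 carried a scattered IgG peak, among them RNU1-27P and RNU1-28P. U1 RNA base-pairs with the start of introns. All 13 also had SBNO1 and TAF4 peaks. The IgG scores ran from 303 to 896, and the unique windows from 0 to 85.6%. RNU1-1, RNU1-2, RNU1-3 and RNU1-4 had IgG peaks of 1203, 698, 1004 and 744 bp, with SBNO1 and TAF4 scores of 1000 at each. Because the bases ahead of RNU1-2, RNU1-3 and RNU1-4 were the same, reads could not be assigned to one copy there. Among U3 small nucleolar RNA genes, which act in ribosomal RNA processing, 6 carried a peak, all with SBNO1 and TAF4. Of 942 annotated small nucleolar RNA genes of any kind, 7 overlapped a scattered IgG peak, 14 an SBNO1 peak and 12 a TAF4 peak. The SNORD3 copies on chromosome 17 had 1.17% to 22.0% unique windows. The peak on another U3 gene, 60089 bp from the TEX14 TSS, had 100% and a score of 721. Of 90 annotated U2 genes, pseudogenes included, 3 carried a peak. The peak at RNU2-2P, at the WDR74 promoter, had a score of 952 and lay under an SBNO1 peak of 1787 bp and a TAF4 peak of 2088 bp. The vault RNA gene VTRNA1-3 carried 1 peak in unique sequence (score 685). Transfer RNA genes carried 6 scattered peaks, on 7 of 443 annotated genes, while SBNO1 peaks lay on 75 and TAF4 peaks on 38 of these genes.

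Of the 706 scattered peaks that were not at a protein-coding promoter, 117 lay within 1 kb of another kind of start site. For 58 of them it belonged to a long non-coding RNA, for 21 to a transcript of a protein-coding gene that is not itself annotated as protein-coding, and for 15 to a small nuclear RNA.

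The 68 scattered peaks without SBNO1 or TAF4 were mainly distal (59) and had unique sequence in 32.4% (21.5 to 44.8) of cases, compared with 74.4% of all scattered peaks. AP-1 was present in 2 of them and the TATA word TATAAA in 19 (27.9%, 17.7 to 40.2). Their median width was 282 bp and the median GC content of their windows 38.5%. In windows 1 kb to either side of distal SBNO1 and TAF4 peaks on scattered IgG peaks, TATAAA was present in 18.0% (15.6 to 20.5) and 18.9% (16.5 to 21.4). These intervals overlap that of the 68 peaks, and the part of base composition was not tested. Of the 40 peaks with SBNO1 only, 77.5% (61.5 to 89.2) were unique and 12 held AP-1. Of the 38 with TAF4 only, 18.4% (7.74 to 34.3) were unique, none held AP-1 and 4 matched the mitochondrial genome.

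Scattered peaks were spread unevenly over the chromosomes. The rule bears on this spread, because the IgG peaks of dense bins that it left out were themselves unevenly placed. They numbered 20, 18, 23 and 29 on chromosomes 5, 11, 12 and 2, and 115 on chromosome 10, with none on chromosome 3. No such rule was applied to the SBNO1 and TAF4 lists. Chromosome 5 held 114 (12.4% of scattered peaks and 8.83% of SBNO1 peaks), chromosome 11 held 111 (12.04% and 7.69%) and chromosome 12 held 84 (9.11% and 6.22%). Together with chromosomes 1 and 17 these held 51.1% of scattered peaks, compared with 40.4% of SBNO1 and 39.3% of TAF4 peaks. Chromosome 2 held 17 (1.84% and 5.85%). Chromosome 11 had 43 promoter peaks, among them those at STIP1, CSTF3, MRPL11 and SF3B2.

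**Figure D5:**
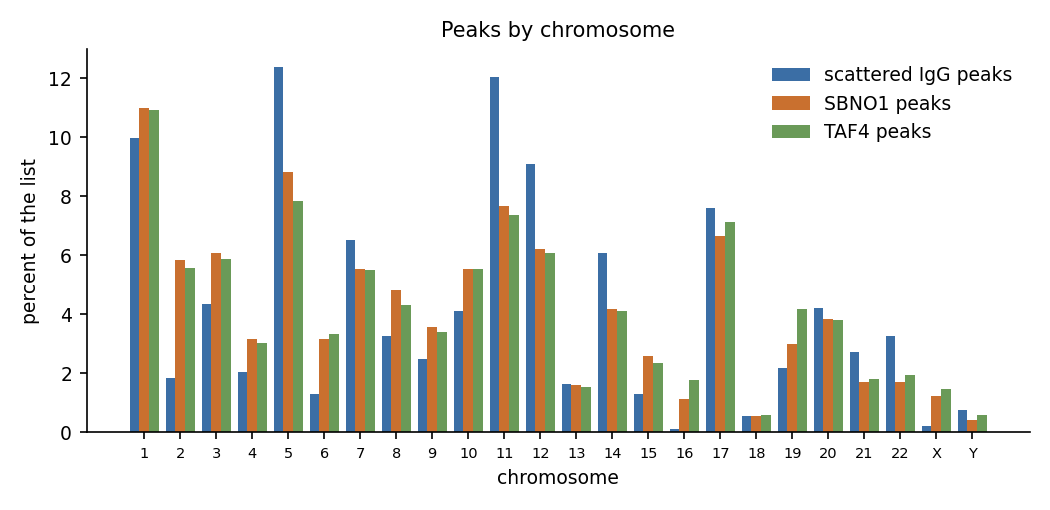
Share of each peak list (y axis, percent) by chromosome, for scattered IgG peaks, SBNO1 peaks and TAF4 peaks. In percentage points, scattered IgG peaks exceed SBNO1 peaks most on chromosomes 5, 11 and 12 and fall below them most on chromosome 2 (1.84% against 5.85%). As a ratio to the SBNO1 share, chromosome 22 stands higher (1.92) than chromosome 11 (1.57).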

How the data were processed

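Chromatin preparation used an enzymatic kit, per the labels. The authors deposited 1 peak list per antibody, with a whole-number score capped at 1000 whose scaling was not stated. The study's methods name alignment with bowtie2 to GRCh38 and peak calling with normR, while the submitters' processing notes name Bowtie2 2.5.4 and Genrich 0.6.1. The caller is therefore uncertain, as are the threshold, duplicate handling and the use of IgG as control. No read numbers were given, so depth is unknown.

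Lists were used unfiltered, with 1-based coordinates. TSS came from GENCODE 44 (78567 sites of 19689 genes). Peaks overlapped at 1 bp or more. Motifs were exact words in 200 bp at the center (the CCAAT, AP-1, KLF/SP, ETS and TATA words spelled out above, the cyclic AMP response element and YY1) on both strands, and overlapping CCAAT matches were each counted. Unique windows had 50 bases and occurred once in the assembly without alternate loci. Mitochondrial matches used BLAST+ 2.17.0, with at least 50 bases and 80% identity. Scripts used Python 3.11.15 and SciPy 1.17.1 and were checked on simulated data.

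Genes were named by a rule: the 15 promoter and 10 distal peaks highest by score, then width, and each list gene with a promoter peak, while other names are marked and some items under the rule are not reported here. Upstream TSS windows, counts and spacing of CCAAT, splits by motif or uniqueness, and small RNA and mitochondrial groups were chosen after values were seen. Peaks, rule and lists were chosen with earlier results of these data known.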

Additional observations from a re-analysis of the deposited data

How the results depend on the processing

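No paired analysis was possible because there was 1 library for each of the antibodies. Of 159 values under other settings 92 stayed within their counting interval or within 1.5 times and 67 moved. Whether a comparison between groups changed direction was not scored. The cause was not tested where values moved. Promoter and distal shares of scattered peaks were 27.4% and 59.2% with a limit of 5 centers, 20.6% and 67.1% with 20, 26.4% and 60.2% with bins of 0.5 Mb, and 20.1% and 68.9% with 1 TSS per gene. With TSS of all transcripts they were 36.1% and 35.8%, with 325 genes, of which SBNO1 was at 88.6% and TAF4 at 88.0%. The promoter share was 27.9% with a 3 kb limit and 16.9% where the peak had to cover the TSS, which left SBNO1 at 87.2% and TAF4 at 90.4% of genes. At or above the median IgG score there were 317 peaks (promoter 15.8%, distal 74.8%, SBNO1 on 81.4%) and 50 genes. At the highest score there were 225 (promoter 7.56%, distal 85.3%, SBNO1 on 77.3%, TAF4 on 84.0%) and 17 genes, all with TAF4 (100%). Unique peaks, an alternative chosen after seeing the data, gave 29.4% promoter and 54.8% distal, SBNO1 on 95.8% and TAF4 on 92.3%, and AP-1 in 37.5% of distal peaks. A reciprocal overlap of 50% gave SBNO1 on 65.7% and TAF4 on 68.1%, and SBNO1 and TAF4 peaks at or above their median score gave 68.1% and 63.4%. Counting every gene within reach gave 99.2% of genes for both. Windows of 400 bp and whole peaks held CCAAT in 67.6% and 68.1% of promoter peaks and AP-1 in 36.9% and 36.6% of all distal peaks, beside 54.2% and 25.6% in 200 bp. The comparison with other lists was not recomputed at these windows. Depth is unknown, and without replicates no difference could be set against the spread between samples.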

Other observations

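HES1, which encodes a repressor induced by Notch signaling, had 3 scattered IgG peaks within 10 kb, of which 2 were at the promoter. It was singled out after its values were seen. The peak over the TSS (chr3:194135875-194136354) scored 945 and lay under an SBNO1 peak of 1295 bp and a TAF4 peak of 1465 bp. The peaks beside it scored 517 and 554, and each had SBNO1 and TAF4 peaks as well. Of 810 groups of scattered peaks joined at 10 kb, 746 were single peaks and 64 held 176 peaks.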
